A study of Drosophila melanogaster with 42 samples.

Results

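These results describe 122 of 16637 measured transcripts of Drosophila melanogaster, chosen by their levels in larval ring glands shortly before puparium formation. Each was lower in control glands at 8 h than at 18 h before puparium formation, by at least 0.8 on the log2 scale, and started from a control 18 h mean of at least 7. Each was also higher in torso-RNAi than in control glands at 8 h, by at least 0.8, and less than 1 higher at 18 h. These conditions were set on log2 means of 3 arrays, so the control and torso-RNAi values below are the values that chose the transcripts and are given as a description with no test. The 122 transcripts were 0.733% of all measured and 20% of the 609 that met the conditions on the control fall and level.

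The ring gland is the endocrine organ that surrounds the aorta near the larval brain, and its largest compartment, the prothoracic gland, makes the steroid ecdysone. The brain neuropeptide PTTH acts on the prothoracic gland through the receptor tyrosine kinase Torso and the small GTPase Ras, and a pulse of ecdysone before puparium formation starts metamorphosis. The organ also holds the corpora allata, which make juvenile hormone, and the corpora cardiaca, which make adipokinetic hormone.

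Total RNA was hybridised to one-colour NimbleGen arrays, and the values are RMA intensities per transcript. Torso-RNAi, RasV12 and control glands came from larvae in which phantom-Gal4 (phm22), a driver active in the prothoracic gland, was crossed to a Torso-RNAi transgene, to RasV12 (constitutively active Ras) or to w1118, so all these glands carry the driver. The labels give torso-RNAi larvae a developmental delay and RasV12 larvae an acceleration, and both were sampled with controls at 18 and 8 h before puparium formation. Wild-type (w1118) ring glands and whole larvae were sampled at 4, 8, 24 and 36 h into the third instar. Each of the 6 driver-cross and 8 wild-type groups had 3 arrays of samples labelled as biological replicates, so p-values measure the spread between those arrays and their number limits the precision. For every 8 h driver-cross array the sample title reads 18 h, whereas its source and description read 8 h. Titles of the 18 h groups speak of a blue gut, and titles of the 8 h groups of a partly clear one. The 8 h results rest on the source times.

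Array medians lay between 276.1 and 335.5 in the wild-type arrays and between 348.8 and 393.6 in the driver crosses, which were not compared with each other. The SD of log2 deviations from the group mean over all transcripts was 0.414 to 0.437 on the torso-RNAi 8 h arrays and 0.257 to 0.265 on the control 8 h arrays. None of the 122 identifiers (0) could be paired with 1 gene name, so the roles of the transcripts, the markers of other cell types and the level of torso could not be read. In RNA from whole organs, fewer cells of a type and less RNA per cell cannot be told apart.

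In control glands the 122 transcripts had a median log2 difference of -1.57 between 8 and 18 h (interquartile range -2.06 to -1.11), against 0.04 over all transcripts. The 3 control arrays at 8 h all lay below the 3 at 18 h for 113 of the 122, against 15.4% of all transcripts. At 8 h, torso-RNAi glands were higher than control glands by a median of 1.28 (interquartile range 1.04 to 1.76), against -0.06 over all transcripts. The torso-RNAi 8 h arrays all lay above the control 8 h arrays for 88 of the 122, against 19.4% of all transcripts, and 85 met both conditions without overlap. The rule used these contrasts, so nothing further is read from the shares.

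Torso-RNAi glands at 8 h differed from control glands at 18 h by a median of -0.15, against -0.03 over all transcripts. The difference was -0.8 or lower in 29 of the chosen transcripts and 0.8 or higher in 4, against 1927 and 1510 of all 16637. This difference is the sum of the control fall and the torso-RNAi minus control difference at 8 h. The rule set limits on both, so nothing further is read from it. In levels, the median transcript had an intensity of 837 in torso-RNAi, 282 in RasV12 and 313 in control glands at 8 h. At 18 h these medians were 944 in torso-RNAi, 472 in RasV12 and 914 in control glands.

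**Figure D1:**
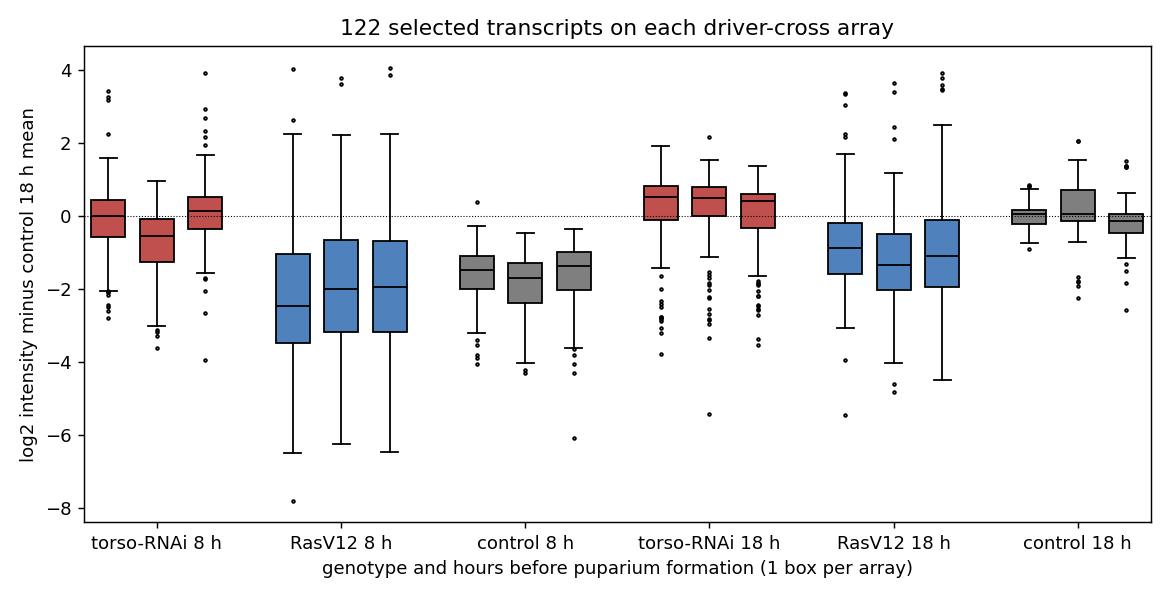
Log2 intensity of the 122 transcripts minus each transcript's control 18 h mean, in 1 box per array (centre line, median; box, quartiles; whiskers, up to 1.5 times the box; points, transcripts beyond). The control 8 h boxes lie below 0 by the choice of the transcripts, and among the torso-RNAi 8 h arrays replicate 2 lies lowest.

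The 122 transcripts did not share 1 course within torso-RNAi glands, and these values also belong to those that chose them. Of the 122, 44 were at least 0.8 lower at 8 h than at 18 h, 60 changed by less than 0.8 and 18 were at least 0.8 higher at 8 h. Of all 16637 transcripts, 1676 were at least 0.8 lower and 1306 at least 0.8 higher at 8 h. The median of the 122 was -0.54, against 0.01 over all transcripts, with a range of -3.66 to 4.42. For the 44, the difference within torso-RNAi glands had a median of -1.14. For the 18 that were higher at 8 h, the torso-RNAi minus control difference had a median of -2.08 at 18 h and of 1.66 at 8 h. Of the 18, 14 were at least 0.8 lower in torso-RNAi glands at 18 h. The 18 also varied most between arrays, with median log2 SDs of 1.03 in control at 18 h and 1.19 in torso-RNAi at 8 h. These SDs were 0.49 and 0.60 for the 44, and 0.19 and 0.41 for the 60. Among the 18 are 5 transcripts that varied together, described below, so the 18 are not separate observations. Only 2 times were sampled, so whether a fall came later in torso-RNAi glands was not measured, and the name of a delayed fall does not describe the 18.

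At 18 h, torso-RNAi glands differed from control glands by a median of 0.46, against -0.02 over all transcripts. The difference was above 0 in 89 transcripts and below 0 in 33, against 8010 and 8627 of all 16637. In 21 it was between 0.8 and 1, just under the limit. In 18 it was -0.8 or lower, against 1868 of all 16637. Of the 609 transcripts with the control fall, 194 (31.9%) were also higher in torso-RNAi at 8 h but at least 1 higher at 18 h, and 293 (48.1%) were less than 0.8 higher at 8 h. Within torso-RNAi glands those 293 had a median 8 h minus 18 h difference of -1.50, and the 194 one of -1.71, against -0.54 in the 122, which follows from how the sets were drawn.

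**Figure D2:**
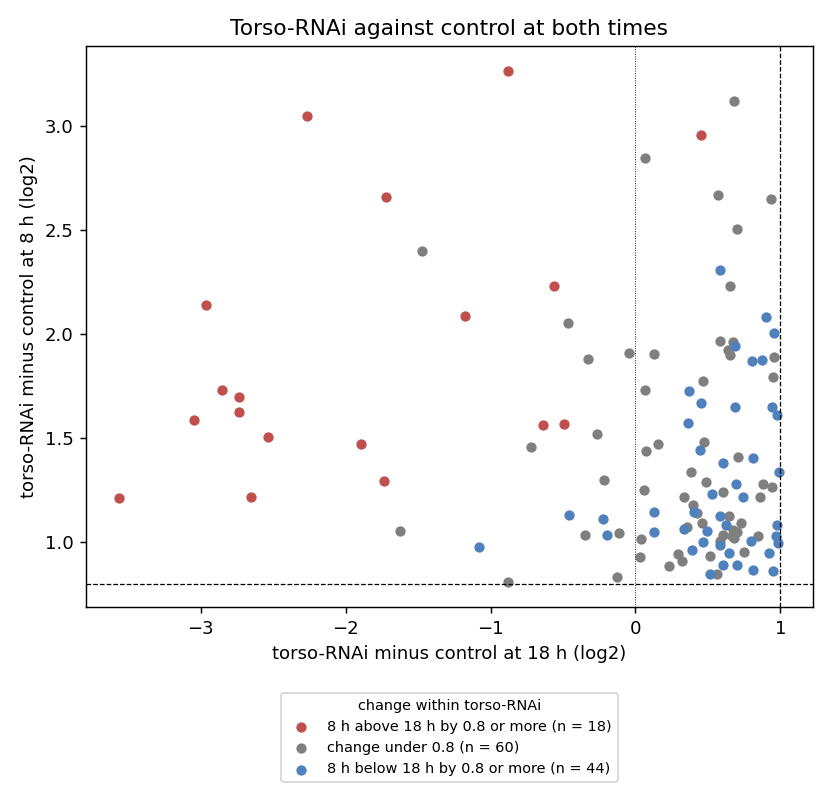
Log2 difference between torso-RNAi and control glands at 18 h (horizontal) and at 8 h (vertical) for the 122 transcripts, coloured by the 8 h minus 18 h change within torso-RNAi glands; dashed lines mark the limits of 1 and 0.8 that chose them. The 18 transcripts higher at 8 h lie mainly at the left, where torso-RNAi was below control at 18 h.

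The thresholds cut through a continuum. FBtr0082483 was just inside the limit on the control fall at -0.801, and FBtr0273381 just outside at -0.799. For the torso-RNAi difference at 8 h, FBtr0081073 was inside at 0.809 and FBtr0071337 outside at 0.799. For the difference at 18 h, FBtr0078195 was inside at 0.993 and FBtr0076776 outside at 1.0007. For the control level, FBtr0075746 was inside at 7.02 and FBtr0072379 outside at 6.99.

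NaPi-III (FBtr0076213), whose name marks a sodium-dependent phosphate transporter family, was the only named transcript to meet the other 3 conditions, and was singled out after its values were seen. It missed the fall, at a control difference of -0.76. At 8 h its intensity was 1371, 1596 and 1367 in torso-RNAi glands, 202, 274 and 219 in RasV12 glands and 752, 789 and 724 in control glands. At 18 h it was 1052, 1225 and 1150 in torso-RNAi glands, 371, 422 and 390 in RasV12 glands and 1093, 1913 and 990 in control glands. At 8 h the 3 genotypes did not overlap, with torso-RNAi highest and RasV12 lowest, whereas at 18 h torso-RNAi arrays lay within the range of the control arrays.

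The largest torso-RNAi differences at 8 h belonged to FBtr0085450 (3.26) and FBtr0076716 (3.12), which behaved differently at 18 h. FBtr0076716 had 823, 426 and 413 in torso-RNAi glands and 44.9, 28.2 and 174 in control glands at 8 h. Its 18 h values were 853, 839 and 832 in torso-RNAi glands and 566, 465 and 550 in control glands. The torso-RNAi arrays lay above the control arrays at both times, and replicate 1 at 8 h was at the torso-RNAi 18 h level. FBtr0085450 had 14404, 1058 and 10346 in torso-RNAi glands and 1754, 219 and 462 in control glands at 8 h. Its 18 h values were 613, 631 and 1027 in torso-RNAi glands and 812, 5661 and 541 in control glands. The genotypes overlapped at both times, and replicate 2 stood apart in torso-RNAi at 8 h and in control at 18 h.

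The largest control differences belonged to FBtr0084441 (-3.97) and FBtr0070147 (-3.79). FBtr0084441 had 204, 37.3 and 172 in torso-RNAi glands and 59.5, 31.2 and 4.8 in control glands at 8 h. Its 18 h values were 151, 149 and 71.4 in torso-RNAi glands and 378, 290 and 313 in control glands, so its torso-RNAi arrays at the 2 times overlapped. At 8 h its torso-RNAi and control arrays also overlapped. Its control arrays there had an SD of 1.89 on the log2 scale, with the lowest at 4.8. FBtr0070147 had 493, 100.2 and 281 in torso-RNAi glands and 61.6, 71.0 and 64.3 in control glands at 8 h. At 18 h it had 2180, 1626 and 1295 in torso-RNAi glands and 545, 2610 and 528 in control glands. Here the torso-RNAi 8 h arrays were all below the torso-RNAi 18 h arrays and all above the control 8 h arrays.

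RasV12 glands were not used to choose the transcripts, and their log2 changes from 18 to 8 h share no array with the rule. The spread behind the p-values was pooled per transcript over all 18 driver-cross arrays, 12 of which the rule used. In RasV12 glands 65 of the 122 transcripts fell, against 17.2% of all transcripts, and 4 rose, against 16.1% of all. The other 53 did not pass the test (limma, adjusted p under 0.05 over all 16637 transcripts). The median log2 change was -1.11, against 0.01 over all transcripts. Transcripts that fell in control and were not higher in torso-RNAi at 8 h fell in RasV12 glands at a share of 64.8%, and those higher at both times at 53.1%, beside 53.3% for the 122. The difference between these shares was not tested. Without replicate 1 or replicate 3 at 8 h, or replicate 3 at 18 h, 2 transcripts rather than 4 were called higher.

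The largest fall in RasV12 glands was that of FBtr0080129, with intensities of 46.7, 43.7 and 57.2 at 8 h and 4706, 1378 and 10903 at 18 h. Its log2 change was -6.40 ± 0.65 (SE, limma adjusted p = 1.2e-05), with no overlap. FBtr0082651 had 4.97, 20.2 and 13.4 at 8 h and 630, 474 and 580 at 18 h, a change of -5.66 ± 0.49 (limma adjusted p = 3.9e-06). Both were low on every RasV12 8 h array. FBtr0085736 rose, with 2160, 4249 and 5818 at 8 h and 770, 784 and 783 at 18 h, a change of 2.27 ± 0.51 (limma adjusted p = 0.0037). FBtr0079277 also rose, with 199, 221 and 264 at 8 h and 61.0, 37.8 and 46.2 at 18 h, a change of 2.25 ± 0.48 (limma adjusted p = 0.0026). The other transcripts called higher were FBtr0071123 at 1.39 and FBtr0071240 at 0.97, which are named because there were only 4 and were singled out after their values were seen.

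RasV12 against control shares its control arrays with the rule and is given without a test. At 18 h, where the control level had been chosen high beside 8 h, the median log2 difference was -1.12, against 0.06 over all transcripts. In RasV12 glands 74 were at least 0.8 lower and 10 at least 0.8 higher, against 2364 and 1631 of all 16637. The median was -1.03 in those not higher in torso-RNAi at 8 h and -0.61 in those higher at both times. At 8 h, where the control level had been chosen low, the median was -0.57, with 56 at least 0.8 lower and 28 at least 0.8 higher. FBtr0076716 had 13.2, 6.87 and 11.6 in RasV12 glands at 8 h and 159, 91.9 and 153 at 18 h, below every torso-RNAi and control array of the same time. The torso-RNAi and RasV12 glands lay on opposite sides of control for this transcript at both times. Its torso-RNAi side at 8 h was fixed by the rule, and the transcript was named for that difference. Its RasV12 8 h mean was low, at 3.35 on the log2 scale.

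In wild-type ring glands, where no transgene was present, most of the 122 transcripts were lower late in the third instar. From 4 to 36 h, 68 fell, against 13.4% of all transcripts, 11 rose, against 24.5% of all, and 43 did not pass the test (limma). The median log2 change was -0.68, against 0.15 over all transcripts. Of the sets drawn from the same 609 transcripts, those higher in torso-RNAi at both times fell at a share of 76.3%, and those not higher at 8 h at 55.6%, beside 55.7% for the 122. The difference between these shares was not tested. Of the 122, 39 (32%) fell both here and in RasV12 glands, against 5.11% of all transcripts, in comparisons that share no array. Of the 65 that fell in RasV12 glands 39 fell here, beside 68 of all 122. Whether the 2 falls went together within the 122 was not tested.

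More of the transcripts fell in the last interval than in either of the others, a difference between counts that was not tested. From 4 to 8 h, 16 fell, against 2.35% of all transcripts, and 6 rose, against 2.4%. From 8 to 24 h, 9 fell, against 5.58%, and 16 rose, against 5.08%. From 24 to 36 h, 34 fell, against 3.97%, and 1 rose, against 7.07%. The median log2 changes over the 3 intervals were -0.23, -0.02 and -0.48, and these intervals differ in length and share the arrays of the times between them. In the last interval the share of falls was 27.9% in the 122. It was 48.5% in those higher in torso-RNAi at both times and 32.8% in those not higher at 8 h.

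Single arrays decided the small counts. From 4 to 8 h, the 16 became 4 without replicate 3 at 8 h or without replicate 1 at 4 h, and 9 without replicate 2 at 8 h or replicate 3 at 4 h. The 6 that rose became 2 without replicate 1 or 2 at 8 h or replicate 1 at 4 h, and 3 without replicate 3 of either time. When the fit held only the 6 arrays compared, 1 fell and 0 rose. From 8 to 24 h, the 9 that fell became 5 without replicate 3 at 8 h. From 24 to 36 h, 17 rather than 34 fell when the fit held only the arrays compared. The transcript that rose there was FBtr0075432, with 4450, 2101 and 331 at 36 h and 553, 136 and 247 at 24 h (2.46, limma adjusted p = 0.023). Its arrays overlapped, and it was called neither without replicate 1 or 2 at 36 h nor without replicate 2 or 3 at 24 h, while 2 transcripts were called higher without replicate 3 at 36 h.

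The largest falls in the wild-type gland from 4 to 36 h were those of the 2 transcripts with the largest control difference. Of these, FBtr0084441 had control 8 h arrays that spread widely (SD 1.89 on the log2 scale). FBtr0070147 had 82.0, 393 and 322 at 36 h and 4751, 1114 and 1713 at 4 h, a log2 change of -3.26 ± 0.54 (SE, limma adjusted p = 1.2e-04). FBtr0084441 had 53.6, 36.5 and 192 at 36 h and 403, 5530 and 475 at 4 h, a change of -3.82 ± 1.02 (limma adjusted p = 0.0065). The 4 h arrays of FBtr0084441 spread widely, with replicate 2 highest. Neither transcript had overlapping arrays.

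Of the 11 transcripts that rose in the wild-type gland from 4 to 36 h, 8 changed by at least 2-fold, and the largest rises were those of FBtr0073303 and FBtr0085462. FBtr0073303 had 117, 95.2 and 145 at 4 h and 344, 344 and 201 at 8 h. It then had 8016, 6641 and 7248 at 24 h, followed by 2601, 3692 and 2979 at 36 h. It was 4.66 ± 0.21 higher at 24 h than at 8 h on the log2 scale (limma adjusted p = 7.0e-11), and at 36 h it lay below its 24 h level on every array. FBtr0085462 had 846, 267 and 259 at 4 h and 7630, 2891 and 3548 at 8 h. It then had 8392, 10086 and 18289 at 24 h, followed by 5691, 13682 and 11552 at 36 h. It was 3.46 ± 0.42 higher at 8 h than at 4 h (limma adjusted p = 7.3e-05), an adjusted p of 0.078 when only the arrays compared were fitted. Both were low early in the instar and high on the later wild-type arrays.

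FBtr0071607 was lower from 24 h on. It had 361, 419 and 502 at 24 h and 1066, 1298 and 1112 at 8 h, a log2 change of -1.45 ± 0.18 (limma adjusted p = 1.8e-05). Its 36 h arrays, at 442, 344 and 368, overlapped the 24 h arrays, with 344 below all of them. FBtr0082651 was called lower from 4 to 8 h (-1.43 ± 0.39, limma adjusted p = 0.042, and 0.12 when only the arrays compared were fitted), a call lost without any 1 of the 4 h or 8 h ring gland arrays. It was called lower again in the last interval, with 310, 1199 and 1294 at 36 h and 2327, 2384 and 4406 at 24 h (-1.89 ± 0.39, limma adjusted p = 0.0035, and 0.13 when only the arrays compared were fitted).

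**Figure D3:**
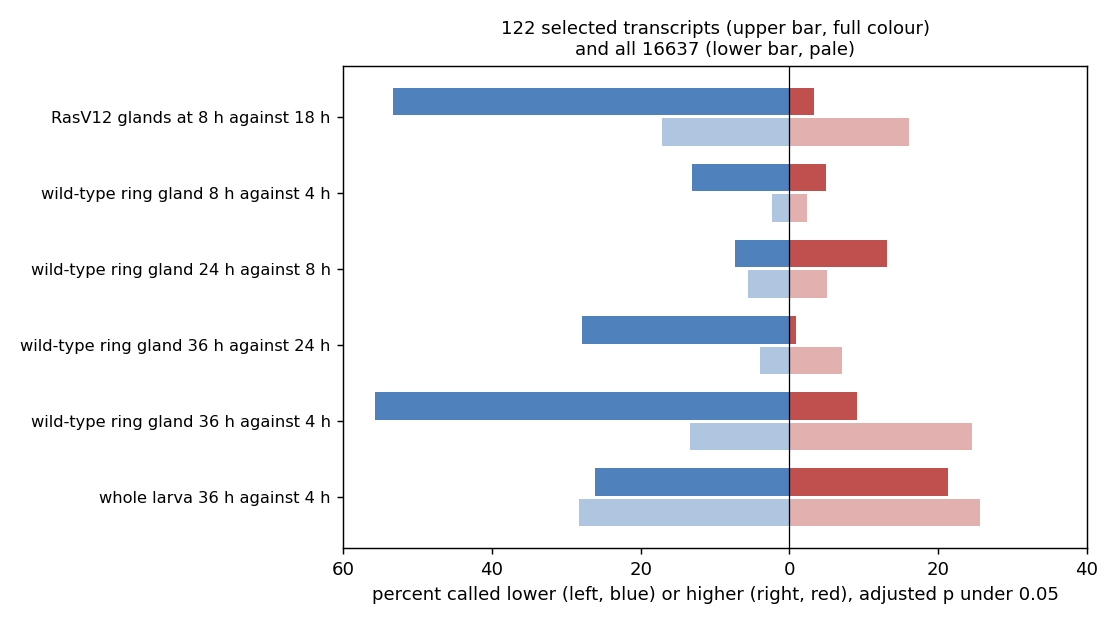
Percent of the 122 transcripts (upper bars) and of all 16637 (lower, pale bars) called lower (left) or higher (right) at an adjusted p under 0.05 in 6 comparisons that did not choose the transcripts. For RasV12 glands 53.3% of the 122 were called lower, against 17.2% of all, and for wild-type glands at 36 against 4 h 55.7%, against 13.4%.

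Whole larvae did not show the same share of falls. From 4 to 36 h in whole larvae, 32 of the 122 fell, against 28.3% of all transcripts, and 26 rose, against 25.6% of all, so that both shares lay near or under those of all transcripts. The median log2 change was -0.08, as over all transcripts (-0.08). Of the 68 that fell in the ring gland, 23 also fell in whole larvae, 7 rose and 38 did not pass the test, against 57.9%, 6.44% and 35.7% of all transcripts that fell in the ring gland. Of the 11 that rose in the ring gland, 9 also rose in whole larvae and 0 fell, against 35% and 16% of all transcripts that rose in the ring gland.

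The difference between the 2 changes was tested for each transcript. The change from 4 to 36 h was lower in the gland than in the larva for 47 transcripts, against 17.3% of all, and higher for 16, against 27.7% of all (limma). The median of the difference was -0.59, against 0.19 over all transcripts. A lower change in the gland was called for 38.5% of the 122, beside 48.5% of those higher in torso-RNAi at both times. It was called for 36.5% of those not higher at 8 h. In whole larvae FBtr0085736 had 48.8, 86.1 and 85.0 at 36 h and 5154, 6333 and 5351 at 4 h, a change of -6.30 ± 0.32 (limma adjusted p = 2.2e-11). In ring glands it had 629, 1266 and 789 at 36 h and 857, 387 and 613 at 4 h, which overlap. FBtr0110880 moved the other way in whole larvae, with 17195, 17621 and 17894 at 36 h and 1557, 1562 and 1660 at 4 h (3.46 ± 0.49, limma adjusted p = 1.1e-05).

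Many of the 122 transcripts had their higher level outside the ring gland. Averaged over the 4 times, 79 had a lower level in the gland than in the larva, against 28.6% of all transcripts, and 34 were higher, against 57.1% of all (limma). The median log2 difference was -1.08, against 0.27 over all transcripts. Those not higher in torso-RNAi at 8 h were lower in the gland at a share of 63.1% and higher at 31.1%. These shares were 79.4% and 13.9% in those higher at both times, beside 64.8% and 27.9% for the 122. The difference between these shares was not tested. With each array centred on its median deviation, 85 of the 122 were lower and 26 higher, against 41.5% and 39.6% of all transcripts. By time the median difference was -0.71 at 4 h, -1.08 at 8 h, -1.23 at 24 h and -1.43 at 36 h.

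At the extreme, FBtr0076389 was 223-fold lower in ring gland when the times were averaged (-7.80 ± 0.22, limma adjusted p = 1.2e-16). At 36 h it had 129, 83.5 and 56.4 in ring gland and 33478, 22612 and 21938 in whole larva. In the driver crosses at 8 h it had 136, 127 and 160 in torso-RNAi and 27.9, 30.9 and 26.3 in control glands, without overlap. At 18 h it had 368, 315 and 298 in torso-RNAi and 288, 169.9 and 208 in control glands.

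Among the transcripts with their higher level in the ring gland, FBtr0080828 was 53.4-fold higher than in whole larva (5.74 ± 0.08, limma adjusted p = 2.9e-21). At 36 h it had 643, 737 and 820 in ring gland and 17.0, 14.9 and 17.6 in whole larva. At 8 h it had 2974, 2531 and 2467 in torso-RNAi glands, 509.7, 676 and 546 in RasV12 glands and 1280, 1245 and 1621 in control glands. Its 18 h values were 7986, 7451 and 7131 in torso-RNAi glands, 1569, 1151 and 1164 in RasV12 glands and 5181, 4557 and 4686 in control glands. At each time the genotypes kept the order torso-RNAi, control, RasV12 without overlap, and each genotype was lower at 8 h than at 18 h. FBtr0076259, 30.3-fold higher in ring gland, kept the same order of genotypes. At 8 h it had 4443, 3500.3 and 3814 in torso-RNAi glands, 464, 500.2 and 591 in RasV12 glands and 1510, 1503 and 1988 in control glands. For both transcripts the rule had set the control fall and a torso-RNAi mean above control at 8 h.

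The 122 transcripts were divided by this difference at 4-fold, a limit chosen after the data were seen. At least 4-fold lower in ring gland were 48 (39.3%, against 9.99% of all transcripts), within 4-fold were 65 (53.3%, against 87% of all) and at least 4-fold higher were 9 (7.38%, against 2.99% of all). In RasV12 glands 48 of the 65 within 4-fold fell, against 17.2% of all transcripts in that class. Of the 48 that were lower in ring gland 14 fell, against 14.1% of that class, and of the 9 that were higher 3 fell, against 26.5%. In the wild-type gland from 4 to 36 h, 38 of the 65 fell, against 10.8% of that class, and 29 of the 48, against 36.6%. Of the 9, 1 fell, against 14.5% of that class, and their median log2 change was 0.80.

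Single arrays weighed on which transcripts met the rule, and differently by class. Control replicate 2 was the highest of the control 18 h arrays for 34 of the 48, against 43.2% of all transcripts in that class, and for 19 of the 65, against 27.2%. Without that array 20 of the 48 and 6 of the 65 no longer met the rule. Without control replicate 2 at 8 h 4 of the 48 and 15 of the 65 no longer met it, and without torso-RNAi replicate 1 at 8 h 3 of the 48 and 14 of the 65. Without torso-RNAi replicate 3 at 18 h it was 12 of the 48 and 4 of the 65. Without replicate 3 at 8 h it was 11 of the 48 and 2 of the 65 for control. For torso-RNAi it was 11 of the 48 and 9 of the 65. Torso-RNAi replicate 2 was the lowest torso-RNAi array at 8 h for 35 of the 48, against 37.1% of that class, and for 46 of the 65, against 24.6%. FBtr0070147, given above, is one of the 48. The part of RNA from other tissues in these levels was not tested, since no marker of another tissue could be named.

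**Figure D4:**
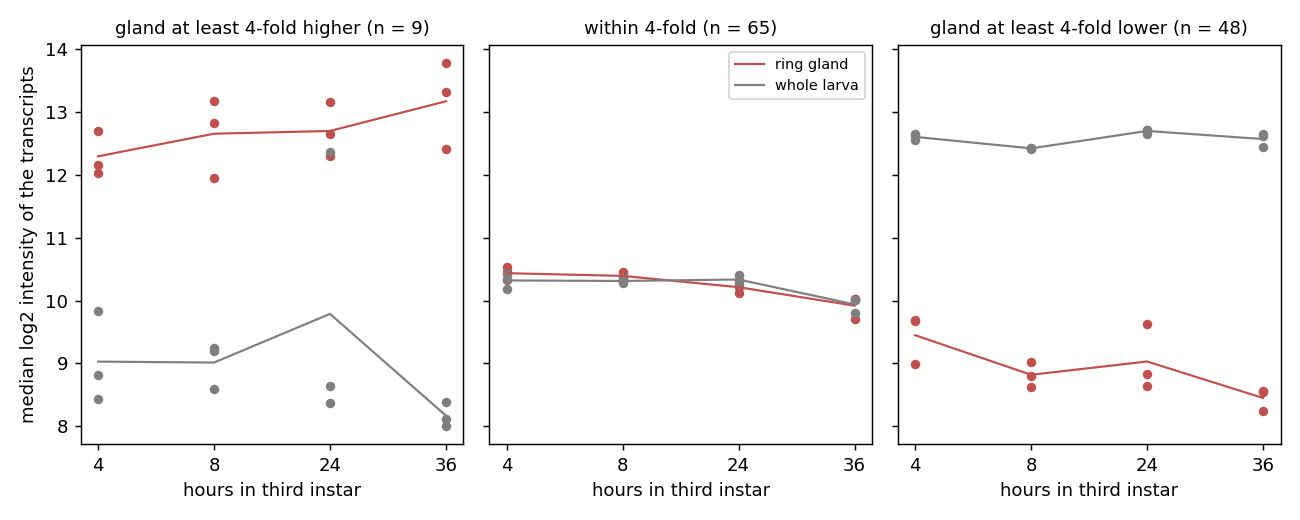
Median log2 intensity of the transcripts at least 4-fold higher in ring gland (n = 9), within 4-fold (n = 65) and at least 4-fold lower (n = 48), by hours into the third instar; points are arrays and lines join group means. In the class of 9, replicate 1 of whole larva at 24 h lies near the ring gland arrays.

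Of the 9 transcripts with the higher level in ring gland, 5 varied together over all 42 arrays. FBtr0082482, FBtr0082636, FBtr0082637, FBtr0082638 and FBtr0082679 had pairwise Pearson correlations of their log2 intensities between 0.983 and 0.998 over their 10 pairs, given as a description over arrays that share groups. They were the largest of 5 such groups, which held 13 transcripts, and were singled out after their values were seen. The correlations span both parts of the data and the difference between ring gland and whole larva. Without gene names, whether the 5 come from the same gene could not be read, so they may not be separate observations. At 8 h the median of the 5 was 735, 1243 and 3478 in torso-RNAi glands, 9501, 3858 and 1756 in RasV12 glands and 636, 332 and 378 in control glands. At 18 h it was 404, 405 and 568 in torso-RNAi glands, 3364, 1236 and 7705 in RasV12 glands and 4245, 814 and 7992 in control glands. These 5 were thus low in torso-RNAi glands at 18 h, where control glands were high, and each was more than 0.8 higher at 8 h than at 18 h within torso-RNAi glands.

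For these 5 the control 18 h arrays differed widely among themselves, with replicate 2 lowest. On the wild-type ring gland arrays their median lay between 4510 and 18706 at every time. In whole larvae it lay between 328 and 1042, apart from replicate 1 at 24 h at 5784. Without that array the comparison of ring gland with whole larva still called 34 of the 122 transcripts higher and 79 lower.

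**Figure D5:**
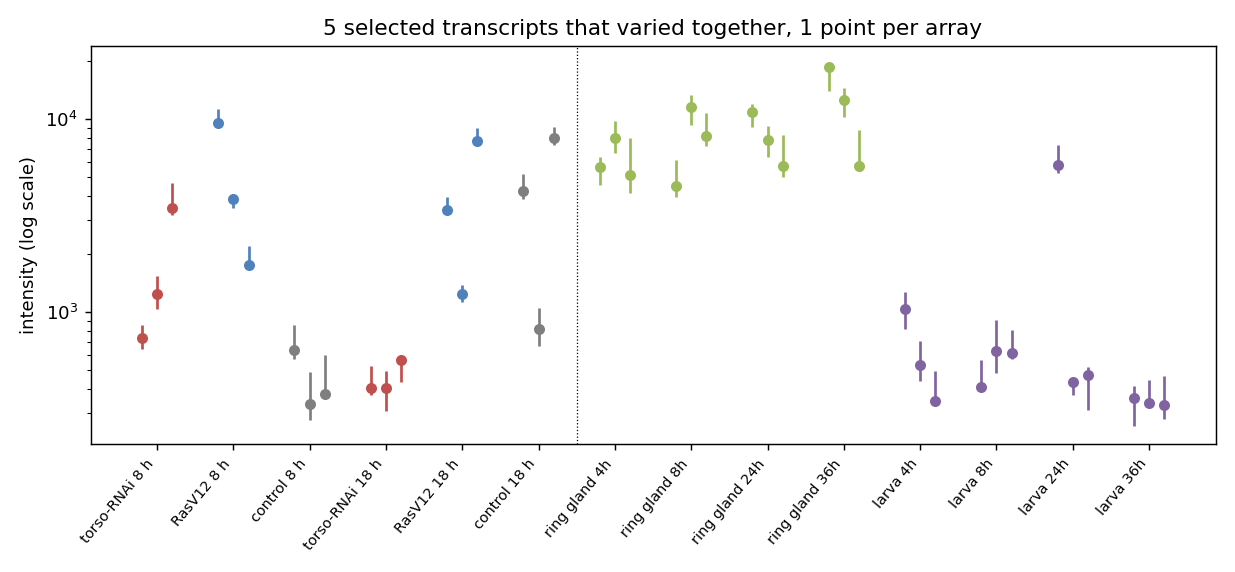
Intensity (log axis) of the 5 transcripts that varied together, with 1 point per array at their median and a line from the lowest to the highest of the 5; the dotted line parts the driver crosses from the wild-type arrays, which were not compared. Torso-RNAi 18 h arrays lie between 404 and 568, and control 18 h arrays between 814 and 7992.

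Of the 122 transcripts, 48 met the rule after removal of each of the 12 control and torso-RNAi arrays in turn, a subset trimmed after its values were seen and described without a test of its own. In RasV12 glands 31 of these 48 fell, against 17.2% of all transcripts, and 0 rose, against 16.1%, at an adjusted p under 0.05 (limma). In wild-type glands from 4 to 36 h, 24 fell, against 13.4% of all transcripts, and 7 rose, against 24.5%. In whole larvae 16 fell, against 28.3% of all, and 11 rose, against 25.6%. Compared with whole larva, 22 were higher and 22 lower in ring gland (median log2 difference 0.07), against 57.1% and 28.6% of all transcripts, whereas 34 were higher and 79 lower among the 122.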

How the data were processed

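The authors deposited linear-scale intensity, made with RMA per the submitters' processing notes. Its version, the probe annotation, the genome build and each array's slide are not given in the sources used. The lowest value of an array was 8.23 to 9.52 in the wild-type part and 1.83 to 2.06 in the driver crosses, so separate normalization of the parts was assumed and no test crossed them. All 42 columns of values were mapped to samples by their labels and 0 were left unused. From the deposited intensities, log2 values were computed without a pseudocount.

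Both parts were analysed in limma 3.58.1 (R 4.3.3; group means, contrasts, eBayes). In each of 8 contrasts, 2-sided p-values of all 16637 transcripts received a Benjamini-Hochberg adjustment, and calls were made at an adjusted p under 0.05. The error given with a log2 change is its limma SE. The step that makes calls was checked on simulated data.

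The transcripts and the gene lists were chosen with earlier results of these data known. A RefSeq gene table matched 44 identifiers, 16 to 1 gene and 28 to several, and 0 of the 122; of 105 genes in 10 lists, 2 were matched, so the lists gave no result. Named are the 2 largest control falls, the 2 largest torso-RNAi differences at 8 h, up to 2 rises and 2 falls per test without overlap between groups, and the transcripts nearest each threshold; exceptions are marked in the text. No sequence was printed, since no identifier of the 122 could be matched.

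Same-numbered arrays were compared by the correlation of their deviations from group means; in no comparison were all pairs over 0.1, so the numbers were not taken as pairs. Alternatives were a second quantile normalization, centring, a filter on the dimmest 20% of transcripts, trend and robust moderation, array weights, only the arrays compared, the replicate number as a block, a 2-fold minimum, each array left out, and other thresholds of the rule.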

Additional observations from a re-analysis of the deposited data

Results flagged for a closer look

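The change from 4 to 36 h was tested for a difference between ring gland and whole larva, transcript by transcript, with limma. It was higher in ring gland for 16 of the 122 transcripts, against 27.7% of all transcripts, and lower for 47, against 17.3%. By a margin of 6.84 ± 0.45 on the log2 scale (limma adjusted p = 6.0e-09), FBtr0085736 was higher in its ring gland change, since it fell in whole larvae. FBtr0084281 showed the same direction at 5.79 ± 0.36 (limma adjusted p = 2.1e-09). It had 5683, 4365 and 4975 in ring gland at 36 h and 4508, 3576 and 4093 at 4 h, and 49.4, 82.6 and 78.9 in whole larva at 36 h and 3407, 3197 and 2692 at 4 h. FBtr0072449 had the opposite direction at -4.04 ± 0.79 (limma adjusted p = 6.3e-04), with 24.3, 45.6 and 94.4 in ring gland at 36 h and 874, 199.6 and 402 at 4 h. In whole larvae it had 1218, 2170 and 2437 at 36 h and 1066, 977 and 934 at 4 h. FBtr0089185 was at -3.01 ± 0.66 (limma adjusted p = 0.0014), with 249, 179 and 240.03 in ring gland at 36 h and 482, 3169 and 486 at 4 h, where replicate 2 stood apart.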

How the results depend on the processing

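With thresholds of 0.6 in place of 0.8 the rule took 213 transcripts, and with thresholds of 1 it took 82. Leaving out 1 array at a time gave 109 to 168, and medians of the 3 arrays gave 134, of which 91 were among the 122. Requiring a 2-fold change lowered counts of calls to 2 higher and 9 lower in ring gland from 4 to 8 h, 3 lower from 8 to 24 h, 13 lower from 24 to 36 h, 15 higher and 15 lower in whole larvae, 18 higher in ring gland than in whole larva, and 10 higher for the difference of changes. Fitting only the arrays compared gave 0 higher and 1 lower from 4 to 8 h and 17 lower from 24 to 36 h. Array weights gave 0 higher from 24 to 36 h and 40 higher in whole larvae. With the replicate block 3 were higher from 4 to 8 h, and 63 fell in RasV12 glands and 67 in ring gland from 4 to 36 h; it moved no other count of calls by over 1.5 times. Leaving out 1 array at a time gave 2 to 3 higher in RasV12 glands, 2 to 4 higher and 4 to 14 lower from 4 to 8 h, 5 to 8 lower from 8 to 24 h, and 0 to 2 higher from 24 to 36 h. The counts of falls in RasV12 glands (56 to 68) and in ring gland from 4 to 36 h (47 to 73) stayed within 1.5 times under each of these alternatives. For single named transcripts, the call was kept in 465 recomputed values and lost in 17, all from 4 to 8 h or 24 to 36 h in ring gland, and 0 reversed. The cause was not tested. No background signal is given, so which of the low values lay above background was not tested; in RasV12 glands at 8 h, 16 of the 122 transcripts had a mean log2 intensity under 5.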
